A study of Mus musculus with 12 samples.

Results

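The genes described here carry the cAMP signal inside the cell: the adenylyl cyclases (*Adcy*), the phosphodiesterases (*Pde*), the subunits of protein kinase A (PKA; *Prkac* and *Prkar*) and the A-kinase anchoring proteins (*Akap*). Members were taken by gene name alone, as every name in the deposited count table made of one of these stems, which gave 59 of 54658 names. Of these, 44 had a depth-scaled count (CPM) above 1 in at least 6 of 12 libraries and were tested, among 13541 tested genes in all. The libraries are bulk RNA sequencing of left atria (LA) from 6 iNICD mice and 6 littermate controls, 1 library per mouse. iNICD mice carry αMHC-rtTA, in which a cardiomyocyte promoter drives the doxycycline-dependent transactivator, together with tetO_NICD, which encodes the intracellular domain of Notch. Controls carry αMHC-rtTA without tetO_NICD, so the transactivator and the drug are common to both groups. All mice were aged 2 to 3 months, came from a mixed genetic background and ate doxycycline chow for 3 weeks with no washout. The controls were 4 females and 2 males, and the iNICD group held 3 of each sex. Because the promoter acts in cardiomyocytes and RNA came from whole tissue, an iNICD library mixes cells in which the transgene is driven and cells in which it is not.

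In a cardiomyocyte, β-adrenergic receptors act through the stimulatory G protein on adenylyl cyclases, which turn ATP into cAMP. cAMP releases the catalytic subunits of PKA from its regulatory subunits, and anchoring proteins hold PKA beside the channels, calcium-handling proteins and myofilaments that it phosphorylates. Phosphodiesterases degrade cAMP, cGMP or both, and each family is set apart by its substrate and by what controls it.

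Of the 44 tested members, 3 rose in iNICD LA and none fell by edgeR's quasi-likelihood test, with p adjusted by the Benjamini-Hochberg method over all tested genes and a threshold of 0.05. The 3 were *Pde1b*, a calcium- and calmodulin-activated phosphodiesterase, *Adcy6*, a main cyclase of cardiomyocytes, and *Pde6d*, which has a phosphodiesterase name but is a carrier of prenylated proteins. Among all tested genes, 2.78% were called higher and 1.34% lower. The median log2 fold change of the members was 0.01, and that of all tested genes was -0.01. At an unadjusted p under 0.05, 5 members lay higher and 6 lower, 11 of 44, where 2358 of 13541 tested genes reached it. DESeq2 called 2 members lower, *Adcy5* and *Akap12*, and the edgeR exact test called none. With control replicate 5 left out, the same 3 members rose and none fell.

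**Figure D1:**
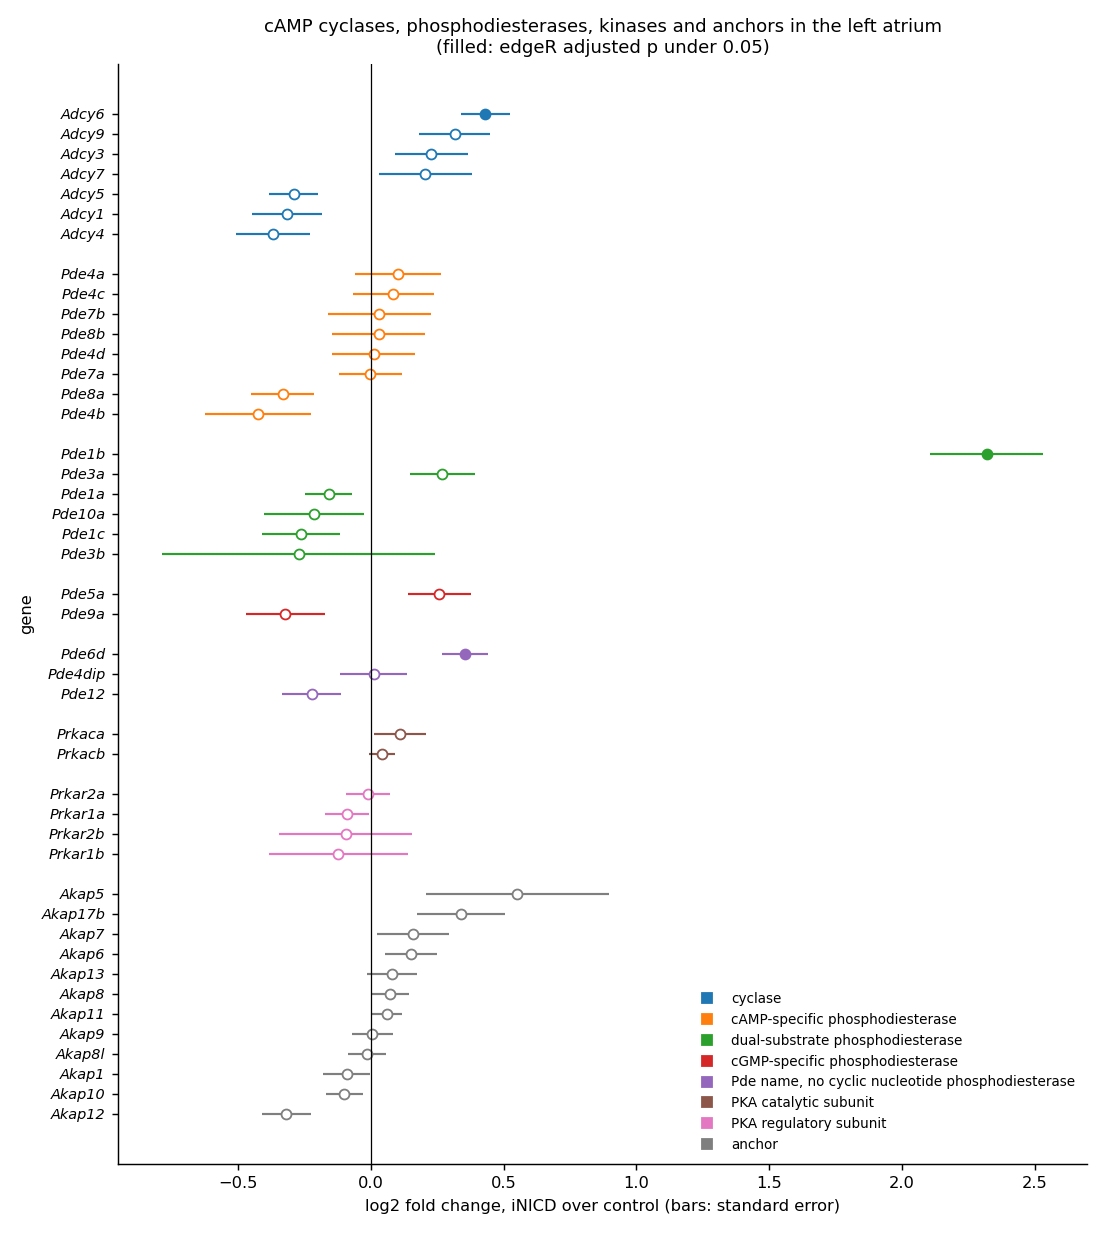
log2 fold change of normalized CPM in iNICD over control LA for each of the 44 tested members, grouped by role, with the standard error as a bar and filled points for an adjusted p under 0.05. *Pde1b* stands at 2.32, and the 41 members that were not called lie between -0.42 and 0.55.

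Depth ran from 21432632 to 27182038 counts per library, so that 1 CPM stood for 21.4 to 27.2 counts. *Notch1*, the gene the transgene derives from, was at 108 to 131 normalized CPM in controls and at 2969 to 4069 in iNICD LA, as labelled, with transgene and endogenous reads counted together. Among the controls, replicate 5 stood apart: in that library, 1793 tested genes (13.2%) were 2-fold or more away from the rest of its group, compared with 187 to 423 genes for any other library. It was the highest or lowest control for 22 of the 44 members, against 10 to 18 for the other controls. Of the values given below, it set the lowest control value of *Adcy6*, *Adcy9*, *Pde3a*, *Pde4a*, *Pde4d*, *Pde5a*, *Prkaca*, *Adrb1*, *Pkig*, *Gucy1a1* and *Mrvi1*. It also set the highest of *Adcy4*, *Pde4b*, *Prkar1a*, *Prkar2a* and *Cnn1*. The labelled chamber was checked with markers. The 4 atrial cardiomyocyte genes (*Myl4*, *Myl7*, *Sln*, *Nppa*) summed to 34165 to 43934 normalized CPM in controls and to 9250 to 16567 in iNICD LA. All 4 fell, but *Nppa* was the largest part of the control sum and fell the most. Its means were 24172 in controls and 4811 in iNICD LA (log2 fold change -2.33). *Myl4*, *Myl7* and *Sln* had -0.75, -0.54 and -0.64, and the groups overlapped for *Myl7* and *Sln*. Of 4 general cardiomyocyte genes, *Tnnt2* fell (log2 fold change -0.44). *Myh6* (-0.03), *Actc1* (-0.46) and *Ryr2* (0.07) were not called. The part of these falls in the members' values was not tested. No marker list of fibroblasts, endothelium, smooth muscle, pericytes, leukocytes, adipocytes, glia or epicardium had a gene that passed the test. In bulk tissue, fewer cells of a type and less RNA per cell cannot be told apart.

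The regions upstream of *Pde1b* and *Pde6d*, the 2 called members with an entry in the promoter table, are shown here, since the transgene encodes a Notch domain that acts through the DNA-binding protein RBPJ, whose core motif is TGGGAA. Each window is the 250 bases upstream of a start in RefSeq on GRCm38.p6, read 5′ to 3′ on the strand of the gene, with matches on either strand in capitals. *Pde1b* has 3 annotated starts. The window of the first, chr15:103502784-103503033 on the plus strand, lies directly upstream of the gene (chr15:103503034-103530052) and holds no match:
Pde1b, first start: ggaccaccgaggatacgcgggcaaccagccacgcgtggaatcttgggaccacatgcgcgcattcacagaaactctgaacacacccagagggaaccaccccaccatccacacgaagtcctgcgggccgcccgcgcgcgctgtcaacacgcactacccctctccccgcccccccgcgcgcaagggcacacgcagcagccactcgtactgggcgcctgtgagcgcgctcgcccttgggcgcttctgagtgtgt
The last of the *Pde1b* starts lies within the gene, and its window, chr15:103514727-103514976, holds TTCCCA, the reverse complement of the core:
Pde1b, last start: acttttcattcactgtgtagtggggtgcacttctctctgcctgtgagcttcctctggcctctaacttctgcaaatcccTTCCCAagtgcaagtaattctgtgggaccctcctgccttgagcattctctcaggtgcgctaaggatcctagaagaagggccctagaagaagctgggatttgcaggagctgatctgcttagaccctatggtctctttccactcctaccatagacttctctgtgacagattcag
The *Pde6d* window, chr1:86582786-86583035 on the minus strand, holds TGGGAA once and also covers the start of *Cops7b* on the other strand:
Pde6d: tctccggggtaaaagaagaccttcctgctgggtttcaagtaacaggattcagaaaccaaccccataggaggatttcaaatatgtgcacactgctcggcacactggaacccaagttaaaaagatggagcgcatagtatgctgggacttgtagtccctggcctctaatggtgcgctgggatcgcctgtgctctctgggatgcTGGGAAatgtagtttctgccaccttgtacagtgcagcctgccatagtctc
Of the 38 tested members with an entry, 15 (39.5%) had the core in at least 1 window, compared with 24.2% of tested genes with an entry. Over all 32851 windows of this length the share was 21.6%. *Adcy6*, *Akap12*, *Pde3a*, *Pde3b*, *Pde7a* and *Pde9a* had no entry. The cAMP response element was also searched on both strands, as the palindrome TGACGTCA and as the shorter TGACG, which also occurs within the palindrome. The palindrome stood in 1 member, *Prkar1a* (2.63% of members, 2.91% of tested genes, 1.55% of windows), and TGACG in 11 (28.9% of members, 29.9% of tested genes, 17.8% of windows). A match gives letters in a window and not a bound site, and a count per gene does not tell which start was used. A gene with more annotated starts has more windows in which a match can fall, and the number of windows was not matched between members and tested genes.

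Of the 7 tested cyclases, *Adcy6* rose and none of the others was called by edgeR in the main fit. *Adcy6* (chr15:98589973-98610076, minus strand) had from 540 to 676 normalized CPM in controls, with a median of 621, and from 681 to 964 in iNICD LA, with a median of 846. All 6 iNICD libraries lay above all 6 controls, although the highest control and the lowest iNICD library were close. The group means were 611 ± 46.8 and 824 ± 111 (SD, n = 6 each), a log2 fold change of 0.43 ± 0.09 (SE; edgeR adjusted p = 0.0204). The call was lost without iNICD replicate 1 (adjusted p = 0.0520) and with the replicate number of the descriptions as a block (adjusted p = 0.0566). Of its exonic bases, 8.92% are shared with an antisense gene.

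*Adcy5*, the cyclase closest to *Adcy6* in sequence and likewise inhibited by calcium, was not called by edgeR in the main fit. It ranged from 163 to 216 normalized CPM in controls (median 199) and from 134 to 180 in iNICD LA (median 158). Of the 6 iNICD libraries, 4 lay below every control. The log2 fold change was -0.29 ± 0.09 and did not pass (edgeR adjusted p = 0.112), while DESeq2 called it (adjusted p = 0.0416). With the replicate number as a block, edgeR called it lower too (adjusted p = 0.0462 by the titles and 0.0471 by the descriptions).

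*Adcy9*, a cyclase that forskolin activates little, had from 6.21 to 11.8 normalized CPM in controls (median 10.9) and from 12.1 to 13.1 in iNICD LA (median 12.7). The groups did not overlap, but the lowest control, replicate 5, widened the control spread, and the log2 fold change of 0.31 ± 0.13 did not pass (edgeR adjusted p = 0.239). Without replicate 5 the log2 fold change was 0.21 and still not called, and with upper quartile normalization the groups overlapped. The other 4 tested cyclases were *Adcy1*, which calcium and calmodulin activate (log2 fold change -0.32), *Adcy4* (-0.37), *Adcy7* (0.20) and *Adcy3* (0.23), none of them called, and 22.1% of the exonic bases of *Adcy3* are shared with antisense *Cenpo*. For *Adcy4*, control replicate 5 stood at 55.3 normalized CPM and the other controls between 28.8 and 36.5.

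Levels of different genes were compared as normalized CPM per kilobase (kb) of deposited gene length, which counts every annotated exon and understates a gene with long, seldom used exons. By this measure *Adcy6* was the highest cyclase in both groups, with 90.1 CPM per kb in controls and 121 in iNICD LA, followed by *Adcy5* with 27.003 and 22.07 and *Adcy1* with 14.96 and 12.01. The *Adcy6* share of the summed cyclase level was 59.7% ± 2.71 in controls and 69.4% ± 2.65 in iNICD LA (SD, n = 6 each), with ranges of 55.4% to 62.3% and 66.8% to 73.6%. The *Adcy5* share was 17.9% ± 2.43 and 12.7% ± 1.18, with ranges of 14.7% to 20.8% and 11.3% to 14.2%. Neither pair of ranges overlapped, and control replicate 5 had the lowest *Adcy6* and the highest *Adcy5* share. The ratio of *Adcy6* to *Adcy5* ran from 2.66 to 4.03 in controls and from 4.78 to 6.51 in iNICD LA. The summed level of the cyclases was 151 ± 5.63 CPM per kb in controls and 174 ± 18.4 in iNICD LA, and its ranges, 144 to 160.0 and 150 to 199.6, did overlap. The shares were compared as ranges, without a test, and a higher share of 1 gene lowers the others.

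**Figure D2:**
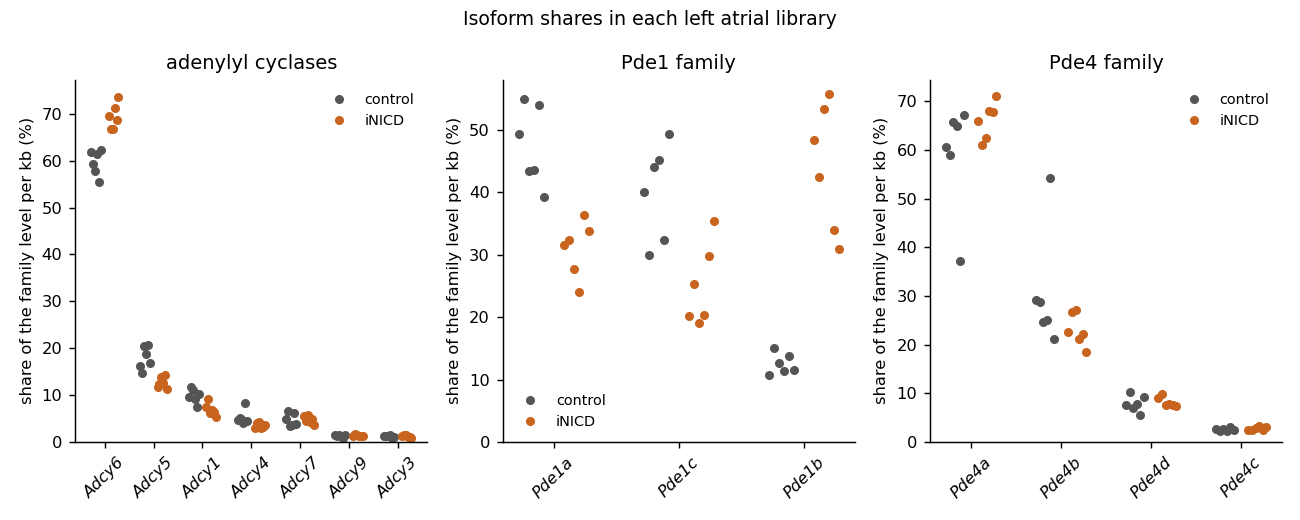
Share of each isoform in the summed level per kb of its family, in percent, for the adenylyl cyclases, the Pde1 family and the Pde4 family, with 1 point per library (control grey, iNICD orange; isoforms above 0.5% in controls). *Adcy6* and *Pde1b* shares are higher in all iNICD libraries than in any control, and the Pde4 shares overlap.

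Among the phosphodiesterases, *Pde1b* changed the most of all members. Pde1 enzymes are activated by calcium and calmodulin and hydrolyse both cAMP and cGMP. *Pde1b* had 3.47, 4.53, 4.00, 3.59, 3.83 and 3.60 normalized CPM in control replicates 1 to 6 and 22.1, 17.1, 25.8, 26.2, 12.97 and 11.01 in iNICD replicates 1 to 6. The controls lay within a narrow band, the iNICD libraries spread more widely, and the lowest iNICD library had 2.43 times the level of the highest control. The means were 3.84 ± 0.39 and 19.2 ± 6.48 (SD, n = 6 each), with a log2 fold change of 2.32 ± 0.21 (SE; edgeR adjusted p = 2.87e-05). It was called with each library left out in turn. Mean levels in females were 3.90 in controls and 21.7 in iNICD LA, and in males 3.72 and 16.7.

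The other 2 genes of the family did not share the rise. *Pde1a* had a log2 fold change of -0.16 (adjusted p = 0.379, edgeR). *Pde1c*, for which the controls ranged from 33.4 to 57.5 normalized CPM (median 49.7) and the iNICD libraries from 34.3 to 47.0 (median 36.5), had -0.26 ± 0.15 (adjusted p = 0.376, edgeR). The groups overlapped for both. Per kb, *Pde1b* made up 12.5% ± 1.66 of the Pde1 level in controls and 44.1% ± 10.2 in iNICD LA, while *Pde1a* went from 47.4% ± 6.34 to 31.0% ± 4.44, again without overlap. The summed Pde1 level was 5.17 to 5.96 CPM per kb in controls and 6.62 to 8.96 in iNICD LA. At the locus, *Ppp1r1a*, which encodes a PKA-regulated inhibitor of protein phosphatase and ends beside *Pde1b* on the other strand, had a log2 fold change of 0.59 (adjusted p = 0.255, edgeR). The 2 tested genes upstream, *Nckap1l* and *Itga5*, were not called either.

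**Figure D3:**
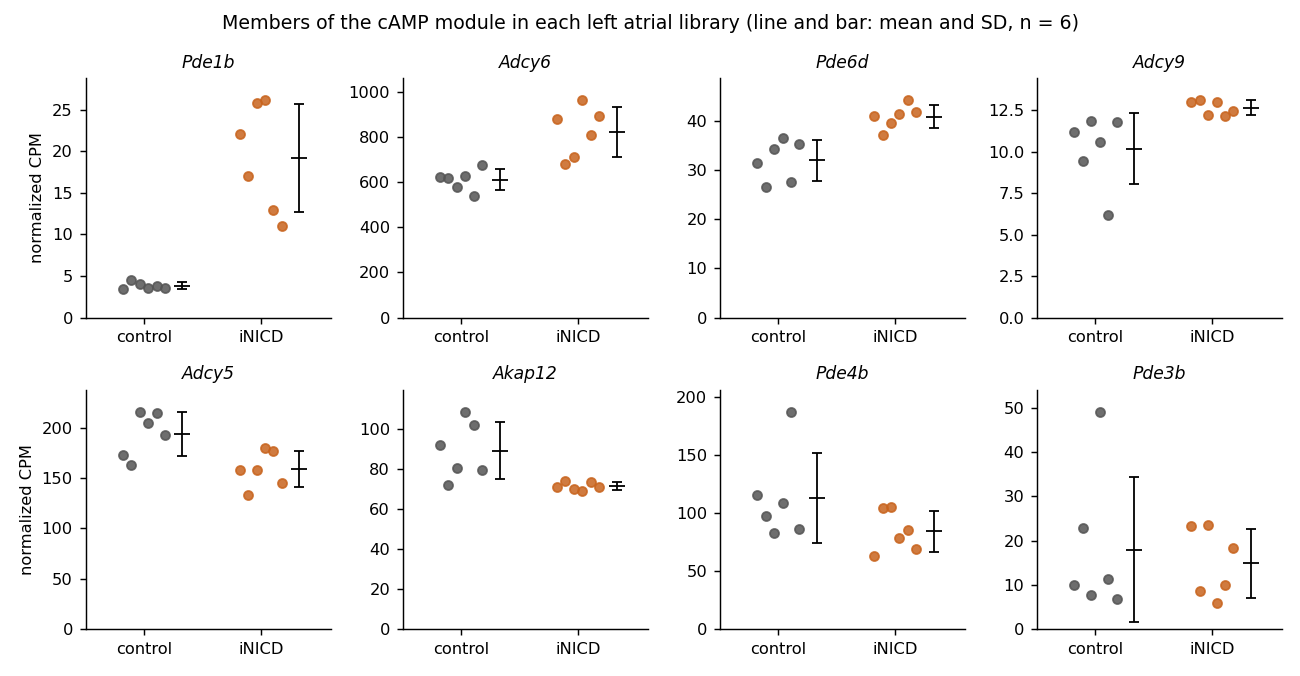
Normalized CPM of 8 members in each of 6 control (grey) and 6 iNICD (orange) LA libraries, with the group mean and SD beside the points and axes from 0. *Pde1b* runs from 3.47 to 4.53 in controls and from 11.01 to 26.2 in iNICD LA, *Adcy6*, *Pde6d* and *Adcy9* are also free of overlap, and the other 4 genes overlap.

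The Pde3 enzymes, which cGMP inhibits and which degrade cAMP in cardiomyocytes, were not called. *Pde3a* ranged from 83.6 to 142 normalized CPM in controls (median 133) and from 124 to 171 in iNICD LA (median 155), with 5 of 6 iNICD libraries above every control and a log2 fold change of 0.27 ± 0.12 (edgeR adjusted p = 0.276). The lowest control was replicate 5, and the others lay between 128 and 142. Leaving it out gave a log2 fold change of 0.17. Relative to its control mean, *Pde3b* spread more among the controls than any other tested member (SD 91.4% of the mean). It ranged from 6.79 to 49.2 in controls and from 5.82 to 23.5 in iNICD LA. Its log2 fold change of -0.27 had a standard error of 0.51, so that a difference of either sign was within its 95% interval (-1.39 to 0.84). *Pde10a* had -0.21 and was not called.

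None of the 8 cAMP-specific phosphodiesterases was called. *Pde4a*, the highest of the Pde4 genes per kb (21.2 in controls and 22.7 in iNICD LA), ranged from 93.3 to 204 normalized CPM in controls (median 167) and from 132 to 192 in iNICD LA (median 179), a log2 fold change of 0.10 ± 0.16 that was -0.015 without control replicate 5, its lowest control. *Pde4b* ranged from 82.2 to 187 in controls (median 103) and from 62.4 to 105 in iNICD LA (median 81.9). The highest *Pde4b* value was control replicate 5, and the other controls reached 115. Its log2 fold change was -0.42 ± 0.20 (edgeR adjusted p = 0.294) and -0.22 without that library. *Pde4d* ranged from 21.8 to 42.8 in controls (median 36.1) and from 28.6 to 43.8 in iNICD LA (median 33.2), with a log2 fold change of 0.01 ± 0.16 that was -0.088 without the same library. Per kb, *Pde4a*, *Pde4b* and *Pde4d* made up 59.1%, 30.5% and 7.89% of the Pde4 level in controls and 66.0%, 23.0% and 8.25% in iNICD LA, with overlapping ranges. *Pde8a*, a cAMP phosphodiesterase of high affinity, had -0.33 ± 0.12 (edgeR adjusted p = 0.153). *Pde4c*, *Pde7a*, *Pde7b* and *Pde8b* lay between -0.00205 and 0.084 in log2 fold change.

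Of the cGMP-specific enzymes, *Pde5a*, the target of sildenafil, ranged from 5.65 to 8.96 normalized CPM in controls (median 7.94) and from 7.86 to 10.8 in iNICD LA (median 9.43). Of its 6 iNICD libraries, 4 lay above every control, and the log2 fold change of 0.26 ± 0.12 did not pass (edgeR adjusted p = 0.288). *Pde9a* had -0.32 (adjusted p = 0.282 by edgeR). *Pde2a*, which cGMP stimulates, failed the expression filter with 4 to 28 counts per library. In GENCODE M21, 64.3% of its exonic bases are shared with the same-strand gene *Gm45837*, which had 0 or 1 count, and reads that 2 genes share can be left uncounted. Its low values can therefore not be read as absence.

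*Pde6d* (chr1:86542994-86582629, minus strand) ranged from 26.5 to 36.4 normalized CPM in controls (median 32.8) and from 37.0 to 44.1 in iNICD LA (median 41.1). All iNICD libraries were above all controls, by a narrow margin. The means were 31.9 ± 4.11 and 40.8 ± 2.38 (SD, n = 6 each), a log2 fold change of 0.35 ± 0.09 (SE; edgeR adjusted p = 0.0348). It was called in 5 of 12 fits with 1 library left out, and the call was lost without control replicates 1 or 2 or iNICD replicates 1, 3, 4, 5 or 6 (adjusted p up to 0.0775, edgeR) or with the replicate number of the titles as a block (adjusted p = 0.0530). The genes on both sides, *Ptma* and *Cops7b*, were not called, and *Cops7b*, whose start its window covers, had -0.01. Another 2 members named for phosphodiesterases do other work. *Pde4dip*, or myomegalin, a protein of the Golgi and centrosome, had the highest value of the members without regard to length, at 2138 ± 451 and 2152 ± 215 normalized CPM, and the exonuclease *Pde12* had a log2 fold change of -0.22. Neither was called. With *Adcy6*, *Adcy9* and *Pde1b*, *Pde6d* completed the 4 members for which every iNICD library lay above every control, where 2.58% of all tested genes did so. No member lay below every control in all iNICD libraries, as 1.25% of tested genes did.

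The 6 tested subunits of PKA had log2 fold changes from -0.12 to 0.11, and none was called. *Prkaca*, the main catalytic subunit, ranged from 222 to 334 normalized CPM in controls and from 276 to 349.9 in iNICD LA, with medians of 300.0 and 301 and a log2 fold change of 0.11 (95% interval -0.10 to 0.32). *Prkacb* was the steadiest member among the controls, at 121 ± 5.09 and 124 ± 4.68 normalized CPM (interval of the log2 fold change -0.06 to 0.14). *Prkar1a* ranged from 597 to 807 in controls (median 644) and from 573 to 693 in iNICD LA (median 607), and its highest value was control replicate 5. *Prkar2a* ranged from 129.9 to 173 in controls (median 132) and from 132 to 156 in iNICD LA (median 139). Their log2 fold changes were -0.09 (interval -0.27 to 0.09) and -0.01 (interval -0.19 to 0.16), or -0.027 and 0.051 without replicate 5. *Prkar1b* and *Prkar2b*, at 6.36 and 5.19 normalized CPM in controls, had -0.12 and -0.10. Per kb, *Prkaca* made up 89.1% and 89.6% of the catalytic level in control and iNICD LA, and *Prkar1a* 85.8% and 85.2% of the regulatory level, with overlapping ranges. At 154 CPM per kb in controls, *Prkar1a* was the highest of all members.

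None of the 12 tested anchors was called by edgeR in the main fit, and their median log2 fold change was 0.07. *Akap12* (gravin), a scaffold for PKA and β-adrenergic receptors, came nearest. It ranged from 72.1 to 109 normalized CPM in controls (median 86.5) and from 69.3 to 74.2 in iNICD LA (median 71.1), with 4 of 6 iNICD libraries below every control and a log2 fold change of -0.32 ± 0.09 (edgeR adjusted p = 0.0773). DESeq2 called *Akap12* lower, and so did edgeR without control replicate 2. Its iNICD libraries spread less than the controls. *Akap6*, which holds PKA at the nuclear envelope of cardiomyocytes, ranged from 222 to 316 (median 274) and from 259 to 356 (median 296), a log2 fold change of 0.15 ± 0.10. *Akap1*, the anchor of the mitochondrial surface, ranged from 113 to 160.1 (median 143) and from 117 to 138 (median 132), a log2 fold change of -0.09 ± 0.09. *Akap13*, which is also a guanine nucleotide exchange factor, ranged from 138 to 191 (median 163) and from 148 to 190.3 (median 179.9), a log2 fold change of 0.08 ± 0.09. The highest anchor log2 fold change, 0.55, was that of *Akap5*, at 1.55 and 2.29 normalized CPM with a standard error of 0.34. *Akap17b* had 0.34, and *Akap7*, *Akap8*, *Akap8l*, *Akap9*, *Akap10* and *Akap11* lay between -0.10 and 0.16. Per kb, *Akap1*, *Akap8l* and *Akap8* had the highest anchor levels in controls, at 31.5, 28.5 and 27.5.

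The 15 members that failed the expression filter had at most 47 counts in any library. They were the cyclases *Adcy2*, *Adcy8* and *Adcy10*, the dual-substrate *Pde2a* and *Pde11a*, the photoreceptor genes *Pde6a*, *Pde6b*, *Pde6c*, *Pde6g* and *Pde6h*, the pseudogene *Prkaca-ps1*, and the anchors *Akap2*, *Akap3*, *Akap4* and *Akap14*. *Pde6c* and *Akap14* had no count in any library. *Akap2* shares 84.4% of its exonic bases with the same-strand gene *Pakap*, which had no count in any library, so that its 0 to 5 counts carry the limit given for *Pde2a*.

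No difference between the sexes in the response of the members was detected. In a fit with a term for sex by genotype, no member had an adjusted p under 0.05 (lowest 0.916, edgeR), and none an unadjusted p under 0.05. Over all 13541 tested genes the adjusted count was also 0, with the same lowest adjusted p, and 501 had an unadjusted p under 0.05. DESeq2 called no member. With 2 male controls the intervals are wide.

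Around the members, 97 further genes of the pathway were followed, of which 88 were tested, 10 rose and 5 fell, where 2.78% of all tested genes were called higher and 1.34% lower. These shares are the background of each list below. The lists were chosen with earlier results of these data known, so a count above these shares is no test of the pathway. Among 17 tested receptors and G proteins, 2 rose and none fell. *Adrb1*, the main cardiac β-adrenergic receptor, ranged from 13.2 to 25.3 normalized CPM in controls (median 16.9) and from 22.5 to 32.5 in iNICD LA (median 29.96). Of the 6 iNICD libraries, 5 lay above every control (log2 fold change 0.70 ± 0.16, edgeR adjusted p = 0.0230), and the call was lost without control replicates 1 or 2 or iNICD replicates 1 or 4, or with the replicate number of the descriptions as a block (adjusted p = 0.0520). *Gnai1*, an inhibitory G protein subunit, ranged from 14.1 to 18.01 in controls and from 18.04 to 30.9 in iNICD LA, just without overlap (0.57 ± 0.12, edgeR adjusted p = 0.0206), and was lost without control replicate 1 or iNICD replicate 1. *Gnas*, the stimulatory subunit, was nearly level at 1057 ± 29.6 and 1085 ± 93.3 normalized CPM, a log2 fold change of 0.04.

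The pseudosubstrate inhibitors *Pkia* and *Pkig*, which bind and block the catalytic subunits, rose. Of 11 tested inhibitors and phosphatases, these 2 were called. *Pkia* ranged from 187 to 226 normalized CPM in controls (median 204) and from 299 to 377 in iNICD LA (median 348), with a log2 fold change of 0.76 ± 0.07 (edgeR adjusted p = 3.39e-05). *Pkig* ranged from 79.2 to 122 (median 99.2) and from 131 to 177 (median 155), with 0.65 ± 0.11 (edgeR adjusted p = 0.00446). Neither gene overlapped between groups.

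Of the effectors of cAMP other than PKA, neither *Rapgef3* nor *Popdc2* was called. *Rapgef3*, a cAMP-activated exchange factor for Rap (Epac), had -0.13 ± 0.09, and *Popdc2*, a cAMP-binding membrane protein of the heart, -0.11 ± 0.21. Of 11 anchors without an Akap name, *Ezr* rose (0.34 ± 0.07, edgeR adjusted p = 0.0107), and of 10 cardiac substrates of PKA *Mybpc3*, cardiac myosin-binding protein C, rose from 2183 ± 217 to 4050 ± 664 normalized CPM (0.89 ± 0.11, edgeR adjusted p = 0.000443).

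CREB is a transcription factor that PKA phosphorylates. Of 10 tested genes listed as its targets, 3 fell and none rose. The median log2 fold change of the list was -1.49, and its values ran from -3.10 to -0.000299, the value of *Dusp1*. *Nr4a2* ranged from 2.95 to 9.91 normalized CPM in controls (median 6.64) and from 1.70 to 2.84 in iNICD LA (median 2.37), without overlap (-1.54 ± 0.28, edgeR adjusted p = 0.00632). *Nr4a3* ranged from 13.9 to 115 (median 56.8) and from 3.03 to 26.2 (median 6.09), with overlap (-2.67 ± 0.59, edgeR adjusted p = 0.0224). *Fos* ranged from 11.1 to 284 (median 38.0) and from 3.85 to 12.5 (median 10.46), with 3 iNICD libraries below every control (-3.10 ± 0.71, edgeR adjusted p = 0.0283). *Fos* was not called when any 1 of the iNICD libraries was left out or with the replicate number as a block (log2 fold change -2.31, adjusted p = 0.105, edgeR, by the numbers in the titles), and *Nr4a3* not without control replicate 1 or iNICD replicates 1, 2 or 4. The controls spread widely, and for 5 of the 10 genes the highest control was replicate 4. Without it the same 3 genes were called, and the log2 fold change of *Fos* was -2.06. Most of these are immediate early genes, which respond to many signals besides cAMP. In the CREB family, *Sik1*, a kinase that holds back the CREB coactivators and is itself induced by cAMP, ranged from 84.1 to 229 and from 30.6 to 70.1 normalized CPM, without overlap (-1.34 ± 0.27, edgeR adjusted p = 0.0147). *Creb3l2*, a membrane-bound factor of the family, fell with 4 iNICD libraries below every control (-0.44 ± 0.11, edgeR adjusted p = 0.0433), and its call was lost in 8 of 12 fits, those without control replicates 1 to 4 or iNICD replicates 3 to 6. It was also lost with no expression filter (adjusted p = 0.0521, edgeR) and with upper quartile normalization (adjusted p = 0.0527, edgeR).

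**Figure D4:**
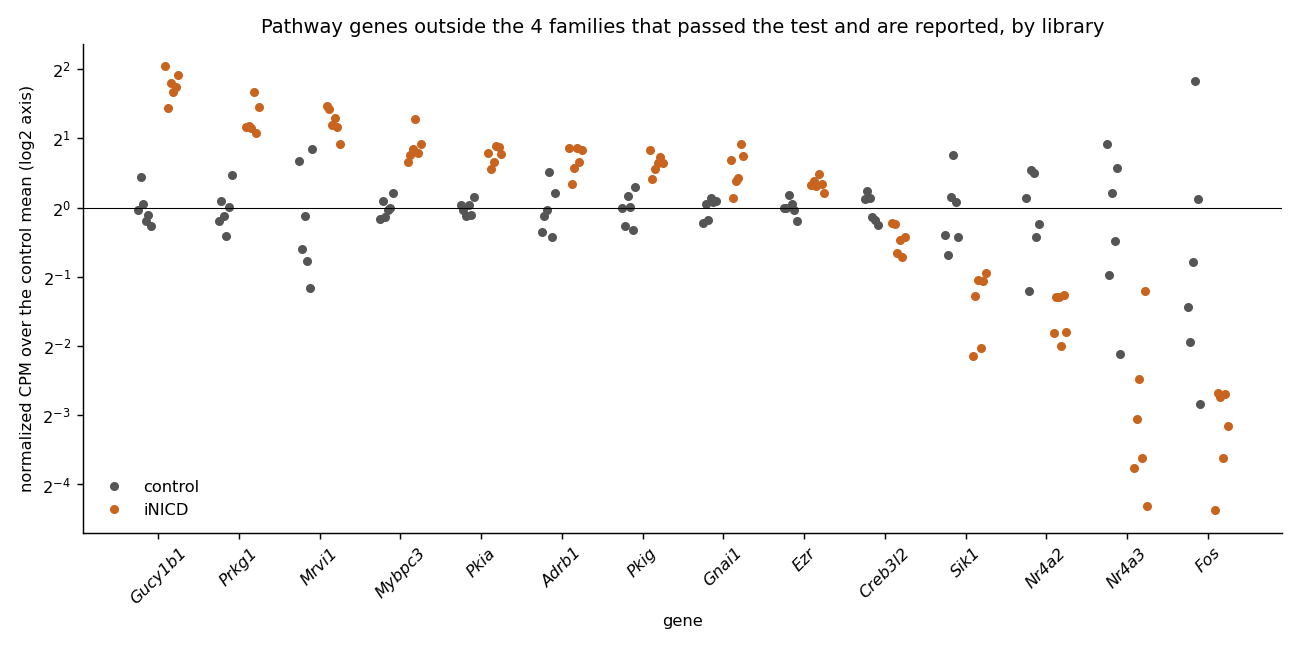
Pathway genes outside the member names that passed the test, 14 in number as plotted, as normalized CPM in each library over the control mean, on a log2 axis, for control (grey) and iNICD (orange) LA. Of the genes plotted, *Gucy1b1* shows the largest rise and *Fos* and *Nr4a3* the largest falls, with control libraries of *Fos* between 11.1 and 284 normalized CPM and a *Fos* log2 fold change of -3.10, or -2.06 without the highest control.

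The cGMP branch, whose product several of the phosphodiesterases also degrade, had 3 of 7 tested genes called higher. *Gucy1b1*, the β subunit of soluble guanylyl cyclase, ranged from 45.6 to 74.0 normalized CPM in controls (median 52.0) and from 147 to 225 in iNICD LA (median 187), a log2 fold change of 1.78 ± 0.13 (edgeR adjusted p = 3.16e-06). *Gucy1a1*, which encodes the partner subunit of the same enzyme, had 0.24 (adjusted p = 0.610, edgeR), and its lowest library was control replicate 5. *Prkg1*, the cGMP-dependent kinase, rose from 6.44 ± 1.40 to 15.8 ± 2.70 normalized CPM (1.30 ± 0.15, edgeR adjusted p = 0.000258). Its substrate *Mrvi1* ranged from 62.5 to 251 in controls (median 111) and from 266 to 389 in iNICD LA (median 332), without overlap (1.26 ± 0.31, edgeR adjusted p = 0.0372), and was called in 4 of 12 fits, those without control replicates 1, 5 or 6 or iNICD replicate 6. None of the smooth muscle and pericyte markers passed the test. The summed smooth muscle level was 65.1 to 392 normalized CPM in controls and 68.5 to 236 in iNICD LA. Its highest control was replicate 5, in which *Cnn1* alone had 235, the top of a control range that began at 4.13. The summed pericyte level was 296 to 417 in controls and 366 to 447 in iNICD LA. The part of these cells in the values of the cGMP genes was not tested.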

How the data were processed

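RNA from whole mouse LA was depleted of ribosomal RNA and sequenced as stranded single-end libraries. The authors deposited raw read counts per gene name with no normalization, and a length in bases per name. The submitters' processing notes name cutadapt, STAR 2.4.2a, Subread, featureCounts, edgeR and mm10. The study describes counting by TopHat2 and HTSeq and also by STAR and featureCounts, and the table does not say which made it or whether strand was used. No column of another sample was used.

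Genes above 1 CPM in at least 6 libraries were tested with edgeR 4.0.16 in R 4.3.3 (TMM normalization, quasi-likelihood test, two-sided, Benjamini-Hochberg adjustment, threshold 0.05). Normalized CPM divide each count by the library total after TMM scaling, and standard errors come from the F statistic. Shares and levels per kb used the deposited length. Gene positions are from GENCODE M21 on GRCm38 (mm10), and promoter windows from RefSeq. The script was tested on simulated data. No 2 libraries of a group had the same total count, so none was an exact copy of another.

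Groups, replicate numbers and sex came from the sample labels. The members and lists were chosen with earlier results of these data known. Members given with per-library values are those called, those without overlap and 16 main cardiac or most studied forms. Further members and *Ppp1r1a*, *Dusp1* and *Gucy1a1* were named to account for the module or after their values were seen. The groups share replicate numbers, but these were not taken as pairs in the main test. The correlation of same-numbered deviations ran from -0.15 to 0.37 and was above 0.1 in 4 of 6 pairs. It was not compared with that of differently numbered libraries, so it does not decide whether the libraries are paired. Alternatives were DESeq2 1.42.0, the edgeR exact test, 2 other normalizations, 2 other filters, no mitochondrial genes, sex as a covariate, each sex alone, a replicate block and each library left out. Right atrium, human nuclei and RT-qPCR were not analysed here, and 1 pathway gene that is counted among the calls is not reported here.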

Additional observations from a re-analysis of the deposited data

Results flagged for a closer look

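Within the 6 libraries of a group, 1 library lay far from the others, by a gap above Dixon's critical value of 0.625 times the whole range, in 7 of 70 groups of values over 35 named genes. Chance marks about 1 in 20 groups, or 3.5 here. Control replicate 5 was the library in 2 cases: its *Pde4b* value was 187 normalized CPM where the other controls had 82.2 to 115, and its *Pde3a* value was 83.6 where they had 128 to 142. *Pde4a* had 132 normalized CPM in iNICD replicate 1 and 172 to 192 in the other iNICD libraries. *Pde4d* had 43.8 in iNICD replicate 2 and 28.6 to 33.7 in the others. *Mybpc3* had 5318 in iNICD replicate 4 and 3432 to 4133 in the others. *Fos* had 284 in control replicate 4 and 11.1 to 86.8 in the other controls. *Nr4a3* had 26.2 in iNICD replicate 5 and 3.03 to 10.9 in the others.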

How the results depend on the processing

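Of 839 values of 35 named genes under the alternatives, 746 kept their direction and their side of the threshold, 75 were no longer called, 3 became called and 15 changed sign. A value of the same sign without an adjusted p was counted among the 746. The members called higher numbered 1 in females only and 0 in males only, and 1 to 3 with 1 library left out, where *Pde1b* alone was called without iNICD replicate 1. The members called lower numbered 2 by DESeq2 and 0 to 1 with 1 library left out (*Akap12* without control replicate 2, *Pde8a* without control replicate 6). Members without overlap numbered 7 in females only and 10 in males only, where 18% and 21.1% of all tested genes were also without overlap. Partners called higher numbered 6 in females only and 1 in males only. Partners called lower numbered 8 by the edgeR exact test, 8 by DESeq2, 2 in females only, 0 in males only and 2 to 6 with 1 library left out. Sex-restricted fits have fewer samples by construction. *Pde6d* lost its call with no expression filter (adjusted p = 0.0642, edgeR), and *Creb3l2* with no filter (0.0521) and with upper quartile normalization (0.0527).

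Whether the replicate numbers pair the libraries was not decided. The deviations of same-numbered libraries correlated above 0.1 in 4 of 6 pairs under either numbering. The mean correlation was 0.12 by the titles and 0.14 by the descriptions, and differently numbered libraries were not compared. With the replicate numbers as a block, 1 member, *Adcy5*, was called lower under either numbering. *Pde6d* was lost under the title numbers (adjusted p = 0.0530, edgeR) and *Adcy6* under the description numbers (adjusted p = 0.0566, edgeR). Among the partners, *Fos* was lost under the title and the description numbers (-2.31, adjusted p = 0.105, and -2.38, adjusted p = 0.0852, edgeR), and *Adrb1* under the description numbers (adjusted p = 0.0520, edgeR).

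The 15 changes of sign were all in genes that were not called. In females only, the log2 fold change was -0.090 for *Pde4a*, 0.00586 for *Prkar2a*, -0.037 for *Gnas* and 0.021 for *Popdc2*. In males only it was 0.0013 for *Akap1* and -0.072 for *Akap13*. With upper quartile normalization *Pde4d* had -0.00042. With 1 library left out, the lowest and highest values were -0.015 and 0.18 for *Pde4a*, -0.088 and 0.088 for *Pde4d*, -0.043 and 0.051 for *Prkar2a*, and -0.19 and 0.087 for *Popdc2*. The untested difference in the *Pde4b* share of its family, whose ranges overlapped, was -7.48 percentage points, and -9.35 to -2.74 with 1 library left out, the latter without control replicate 5. The causes were not tested.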

Other observations

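Of the 44 tested members, 15 had a control mean above 100 normalized CPM and 10 a mean below 10. *Hcn2*, a cAMP-gated channel, had 5.49 ± 1.36 normalized CPM in controls and 8.74 ± 2.43 in iNICD LA (log2 fold change 0.67, adjusted p = 0.108, edgeR) and was called by DESeq2. *Rapgef4*, the second Epac gene, had 22.2 ± 3.56 and 15.8 ± 3.503 (-0.49, adjusted p = 0.0949, edgeR), with 5 of 6 iNICD libraries below every control, and was called by DESeq2 and by the exact test of edgeR. Both were named after their values were seen.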
